A study of Mus musculus with 9 samples.

Results

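The kainate receptor family in these data consisted of the 5 subunit genes Grik1 to Grik5 and the 2 auxiliary subunit genes Neto1 and Neto2, taken by symbol from a table of read counts. All 7 were among the 18956 symbols of the table, and all 7 passed the filter on low counts that left 18194 genes for testing. Bulk RNA was sequenced from BALB/c mouse brain, from a midline nucleus of the thalamus labelled as its anterior paraventricular nucleus (aPVT). The non-stressed saline group was BALB/c mice without stress that received saline. The stressed saline group went through social defeat (smSDS in the labels) on 5 days, in which a mouse meets an aggressive one, and received saline. The stressed SHNK group went through the same social defeat and received (2S,6S)-HNK, a hydroxynorketamine that is a metabolite of ketamine. Each group held 3 libraries. The sources used here give no age, sex, dose, time of injection or time of dissection, nor whether a group's 3 libraries stem from 3 animals or from pools. The p-values therefore measure the spread between these libraries only, which may be technical.

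Kainate receptors are tetrameric glutamate-gated cation channels that sit on both sides of synapses, where they carry slow postsynaptic currents and tune transmitter release. The subunits GluK1, GluK2 and GluK3, encoded by Grik1, Grik2 and Grik3, form channels on their own and are called the low-affinity subunits. GluK4 and GluK5, encoded by Grik4 and Grik5, bind kainate with high affinity and reach the surface as working channels only in combination with a low-affinity subunit. Neto1 and Neto2 are single-pass membrane proteins that join these receptors, slow their gating and affect their placement at synapses.

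The high-affinity subunit genes Grik4 and Grik5 were lower in the stressed SHNK group than in the stressed saline group, to 65.9% (95% interval 55.6% to 78.1%) and 68.6% (57.5% to 81.8%) of its level. The low-affinity genes Grik1, Grik2 and Grik3 and the auxiliary genes Neto1 and Neto2 did not pass the test in that comparison. No member passed the test between the stressed and non-stressed saline groups. In this bulk tissue, fewer cells of a type and less RNA per cell cannot be told apart.

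The promoters of Grik5 and Grik4 are shown because these genes were the members that moved together. In GENCODE vM21 on GRCm38, Grik5 lies on the minus strand of chromosome 7, from 25009849 to 25072346. Grik4 lies on the minus strand of chromosome 9, from 42518135 to 42944493. The sequences are RefSeq bases (GRCm38.p6) upstream of every annotated start of the gene in both annotations, read 5′ to 3′ on the gene's strand. The Grik5 stretch holds 250 bases at chr7:25072370-25072619, and the Grik4 stretch holds 128 bases at chr9:42944494-42944621. Capitals mark the letters GGGCGG, the GC box bound by Sp-family factors; both strands were searched, and a match on the opposite strand would read CCGCCC.
Grik5: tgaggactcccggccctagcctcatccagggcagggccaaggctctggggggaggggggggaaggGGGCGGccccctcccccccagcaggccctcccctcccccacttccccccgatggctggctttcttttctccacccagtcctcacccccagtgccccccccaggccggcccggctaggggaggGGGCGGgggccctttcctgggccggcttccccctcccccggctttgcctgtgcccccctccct
Grik4: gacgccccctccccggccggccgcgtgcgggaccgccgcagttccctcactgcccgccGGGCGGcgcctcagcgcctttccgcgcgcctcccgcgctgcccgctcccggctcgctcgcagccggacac
G and C made up 75.2% of the Grik5 stretch and 82.0% of the shorter Grik4 stretch. The full RefSeq windows of 300 bases run from 250 bases before to 50 bases after a RefSeq start. Over these windows, Grik5 and Grik4 were at 72.0% and 70.0% G and C. The uncalled Grik3 and Grik2 were at 82.0% and 64.7%, and the windows of Neto2 at 72.0% and 42.7%. The median over all mouse windows was 52.7%. Grik5 held 2 GC boxes and Grik4 held 2. The GENCODE start of Grik4 lies 128 bases into its window, before the RefSeq start, so the GC box of Grik4 that is not printed lies inside the gene as GENCODE draws it. The window of Grik3 held 7 GC boxes, that of Grik2 held 0, and the 2 windows of Neto2 held 2 and 0. Of 32817 such mouse windows, 35.6% held a GC box. The cyclic AMP response element TGACGTCA was in 0 of these 6 windows and in 1.8% of all windows. These matches describe letters and no measured binding. Grik1 had no window in the RefSeq table used, and Neto1 was left out of this search.

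Total counts were 32307869 to 51569143 per library. The table held no zeros, and its lowest count was 1. CPM here are counts divided by the TMM-scaled library total, except in the summed levels of marker lists, which used the total without TMM scaling. The 13 listed markers of paraventricular and midline thalamus were present in all 9 libraries, at unlike levels. Calb2 lay between 1685 and 2407 CPM, Slc17a6 between 483.3 and 711.2, Gbx2 between 219.1 and 276.9 and Drd2 between 3.92 and 7.65. Prkcd, from the list of other thalamic nuclei, lay between 315.7 and 613.0 CPM. How closely the dissection kept to the nucleus was not tested. A 15-gene list of markers of the habenula, which borders the aPVT, had 12 genes in the table. Their summed level was 96.2 to 165.5 CPM in non-stressed saline, 283.9 to 875.3 CPM in stressed saline and 61.5 to 73.8 CPM in stressed SHNK. The 3 groups did not overlap in this sum, which therefore stands beside the results below. This sum was lowest in stressed SHNK and highest in stressed saline. Grik4 and Grik5 were also lowest in stressed SHNK, and neither was called between the saline groups. Whether the habenula genes bear on Grik4 and Grik5 was not tested.

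Levels were first compared between the members on a scale per kilobase of RefSeq transcript, since a long transcript gives more reads than a short one. Grik5 stood first, with a mean of 10.8 CPM per kilobase over the 9 libraries (range 6.83 to 14.3), and its lowest library lay above every library of every other member. Grik2 followed with a mean of 3.47 CPM per kilobase (3.09 to 3.92) and Grik1 with 3.30 CPM per kilobase (2.64 to 4.04). Those 2 genes overlapped over most of their range and could not be ordered. Neto2 had a mean of 2.99 CPM per kilobase (2.57 to 3.50) and Grik4 a mean of 2.27 CPM per kilobase (1.48 to 2.80). Each of them overlapped its neighbour in the order. Grik3 had a mean of 1.21 CPM per kilobase (1.02 to 1.47) and Neto1 one of 0.562 CPM per kilobase (0.472 to 0.790), and neither overlapped any other member, although the highest Grik3 library lay just under the lowest Grik4 library (1.47 against 1.48). The order rests on the length chosen: per kilobase of coding sequence, the means were 13.9 for Grik5, 10.1 for Neto2, 7.96 for Grik2, 4.65 for Grik4, 4.19 for Grik1, 3.95 for Grik3 and 2.94 for Neto1. Grik5 was first and Neto1 last on both scales.

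The high-affinity subunits gave the family's difference between groups. Grik4 read 15.4, 15.4 and 16.5 CPM in the 3 non-stressed saline libraries. It read 14.1, 15.5 and 14.3 CPM in stressed saline and 10.8, 9.45 and 8.69 CPM in stressed SHNK. All 3 SHNK libraries lay below all 6 saline libraries, and the saline groups overlapped. Group means of Grik4 were 15.8 ± 0.591, 14.6 ± 0.723 and 9.63 ± 1.05 CPM (SD, n = 3 each). These values came from 320 to 722 reads per library.

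Grik5, which encodes the most abundant partner subunit on either length scale, had the same layout. It read 41.8, 47.8 and 53.6 CPM in non-stressed saline and 43.2, 41.8 and 47.2 CPM in stressed saline. It read 34.2, 30.7 and 25.7 CPM in stressed SHNK. Again the highest SHNK library lay below the lowest saline library. Group means of Grik5 were 47.8 ± 5.90, 44.1 ± 2.80 and 30.2 ± 4.27 CPM (SD, n = 3 each), from 946 to 2186 reads per library.

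**Figure D1:**
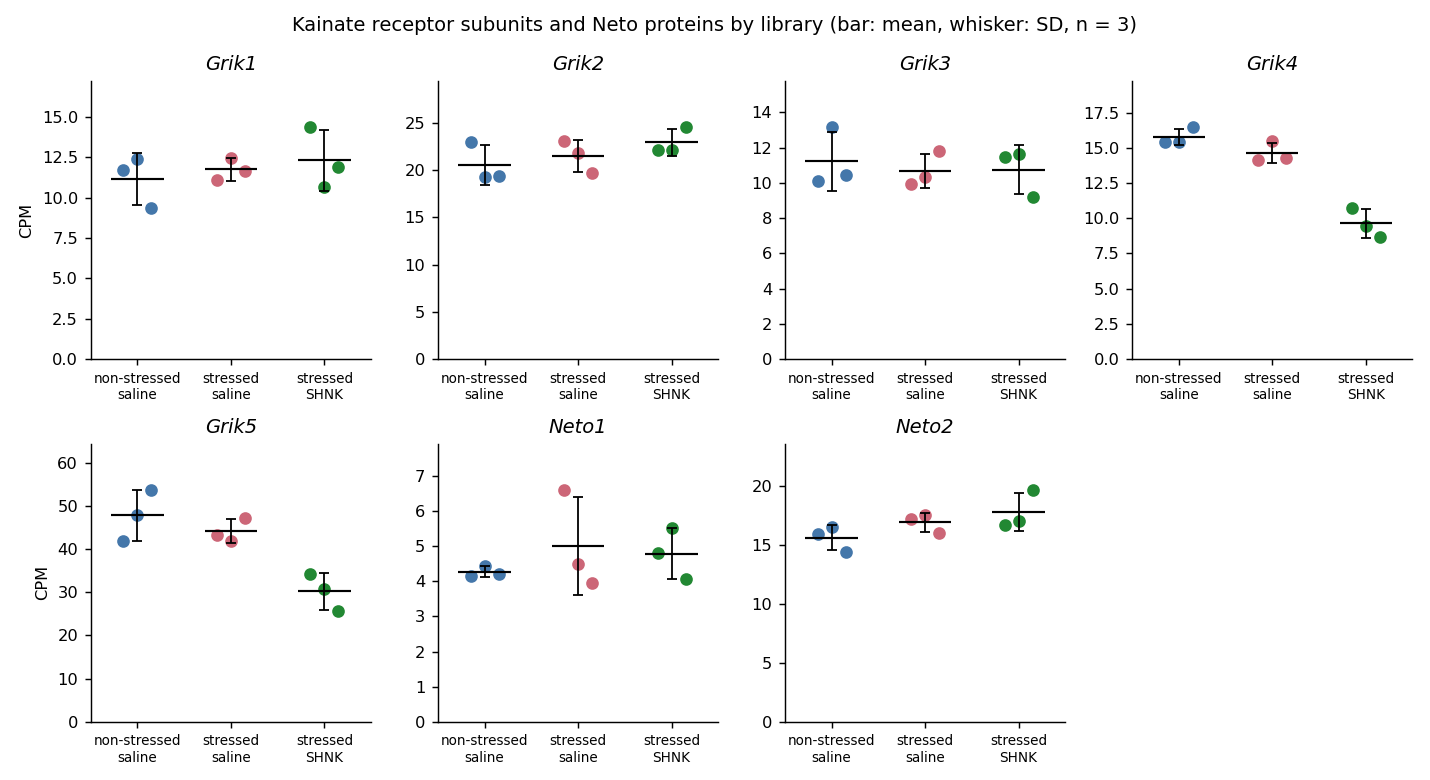
CPM (TMM-scaled) of the 7 kainate receptor and Neto genes in each of the 9 libraries, by group; points are libraries, bars group means and whiskers SD (n = 3). The 3 SHNK points of Grik4 (8.69 to 10.8) and of Grik5 (25.7 to 34.2) lie below all saline points, while the groups of Grik1, Grik2, Grik3 and Neto1 overlap.

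Between stressed SHNK and stressed saline, 2 of the 7 members fell and 0 rose. Among all tested genes 6.41% were called in this comparison, with 3.96% falling and 2.45% rising. At an unadjusted p under 0.05, the same 2 members and 23.3% of all genes passed. A gene is called here when its p from edgeR's quasi-likelihood test, adjusted by Benjamini-Hochberg over all 18194 genes, is under 0.05. The log2 fold change of Grik4 was -0.60 ± 0.11 (SE), with an adjusted p of 0.00994 in edgeR. That of Grik5 was -0.54 ± 0.12 (SE), with an adjusted p of 0.0176 in edgeR. Both genes had lower values in 3 of 3 SHNK libraries than in any stressed saline library, a layout found in 15.9% of tested genes. The median log2 fold change of the 7 members was 0.014, beside -0.0091 over all tested genes, and 4 of the 7 members had values above 0.

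Those calls were not kept in some of the fits that left out 1 library. Without SHNK replicate 2 or replicate 3, the adjusted p of Grik4 was 0.0565 or 0.0632 and that of Grik5 was 0.0712 or 0.101; without stressed saline replicate 3, that of Grik5 was 0.0550 (edgeR). Genes called over the whole table went from 1167 to 238 and 176 without SHNK replicate 2 or 3. Without stressed saline replicate 3 there were 718. Over the 9 fits that each left out 1 library, the log2 fold change of Grik4 was -0.69 to -0.53 and that of Grik5 was -0.64 to -0.44.

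Several marker lists had genes that fell beside Grik4 and Grik5 in stressed SHNK against stressed saline. Over all tested genes, 3.96% fell and 2.45% rose in this comparison. The habenula list fell in SHNK against stressed saline, with 11 of its 12 tested genes called. The astrocyte list had a mean of 7.68 ± 0.016 log2 CPM in non-stressed saline, 7.82 ± 0.13 in stressed saline and 7.33 ± 0.066 in stressed SHNK (SD, n = 3 each), and its 12 genes summed to 5216 to 5404, 4765 to 6012 and 4068 to 4277 CPM. Of those 12 astrocyte genes, 6 fell in SHNK against stressed saline. Like Grik4 and Grik5, the astrocyte list was lower in every SHNK library than in every saline library. The hippocampus list had the same layout: its 9 tested genes summed to 706.3 to 819.3 and 723.7 to 763.6 CPM in the saline groups and 581.3 to 635.8 CPM in stressed SHNK, and 3 of them fell against stressed saline. The 12-gene ependyma list had 6 genes that fell, with sums of 77.5 to 98.96, 160.8 to 257.3 and 84.7 to 134.4 CPM in the 3 groups. The 10 genes of the oligodendrocyte precursor list summed to 337.1 to 409.8, 337.2 to 377.6 and 260.4 to 297.9 CPM, and none was called. Of the other lists, 2 of 11 striatum and septum genes, 3 of 9 choroid plexus genes and 1 of 13 endothelium and mural cell genes fell, and 4 of 5 blood genes rose. None was called in the lists for microglia, oligodendrocytes, hypothalamus and GABA neurons, and 1 of 13 paraventricular and midline thalamus genes rose and 1 fell. The list of other thalamic nuclei moved the opposite way, with 9 of 12 genes that rose and sums of 2590 to 2977, 2280 to 2456 and 3130 to 3402 CPM. The table holds no zeros, and whether a listed gene absent from it was at 0 cannot be read from it. It lacked 3 of the 15 habenula genes. Of the other marker lists, it held 7 of 13 GABA neuron genes, 9 of 12 hippocampus genes and 7 of 11 hypothalamus genes. It held 9 of 10 choroid plexus genes and 5 of 6 blood genes.

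With a list's mean level as a covariate in the edgeR model, neither gene was called in SHNK against stressed saline. With the habenula list, the log2 fold change against stressed saline was -0.18 ± 0.36 (SE) for Grik4 and -0.11 ± 0.37 for Grik5. With the ependyma list it was -0.36 ± 0.19 and -0.42 ± 0.20, and with the astrocyte list, a covariate added after seeing the data, -0.52 ± 0.36 and -0.26 ± 0.36. Each list differed between the groups itself, so a covariate shares the group difference, and the standard errors grew. In those 3 fits, 1, 2 and 26 genes of the whole table were called. The habenula list rose from 2.65 ± 0.64 to 4.84 ± 0.82 log2 CPM between the non-stressed and stressed saline groups (10 of 12 genes called), and over the same step Grik4 and Grik5 differed by -0.11 ± 0.11 and -0.12 ± 0.12 (log2, SE). What part any of these cell populations had in the fall of Grik4 and Grik5 was not tested beyond these values.

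Grik5 also stood apart in base composition. Its RefSeq transcript was 62.3% G and C, at percentile 98.3 of the 16724 tested genes with a value, while Grik4 was at 52.2% and percentile 58.8. Fold changes followed GC content and length across the table, and the trend fitted at the values of Grik5 was -0.34 on the log2 scale in SHNK against stressed saline, against -0.13 for Grik4. With this trend in the offsets, an alternative added after seeing the data, the log2 fold change of Grik4 was -0.47 ± 0.094 (SE) and it was still called (adjusted p = 0.0106, edgeR). That of Grik5 was -0.21 ± 0.084 and was no longer called (adjusted p = 0.145, edgeR). Over all alternatives that kept the 9 libraries or compared 2 groups, the adjusted p ran from 0.000106 to 0.9999 for Grik4 and from 0.000781 to 0.9999 for Grik5.

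**Figure D2:**
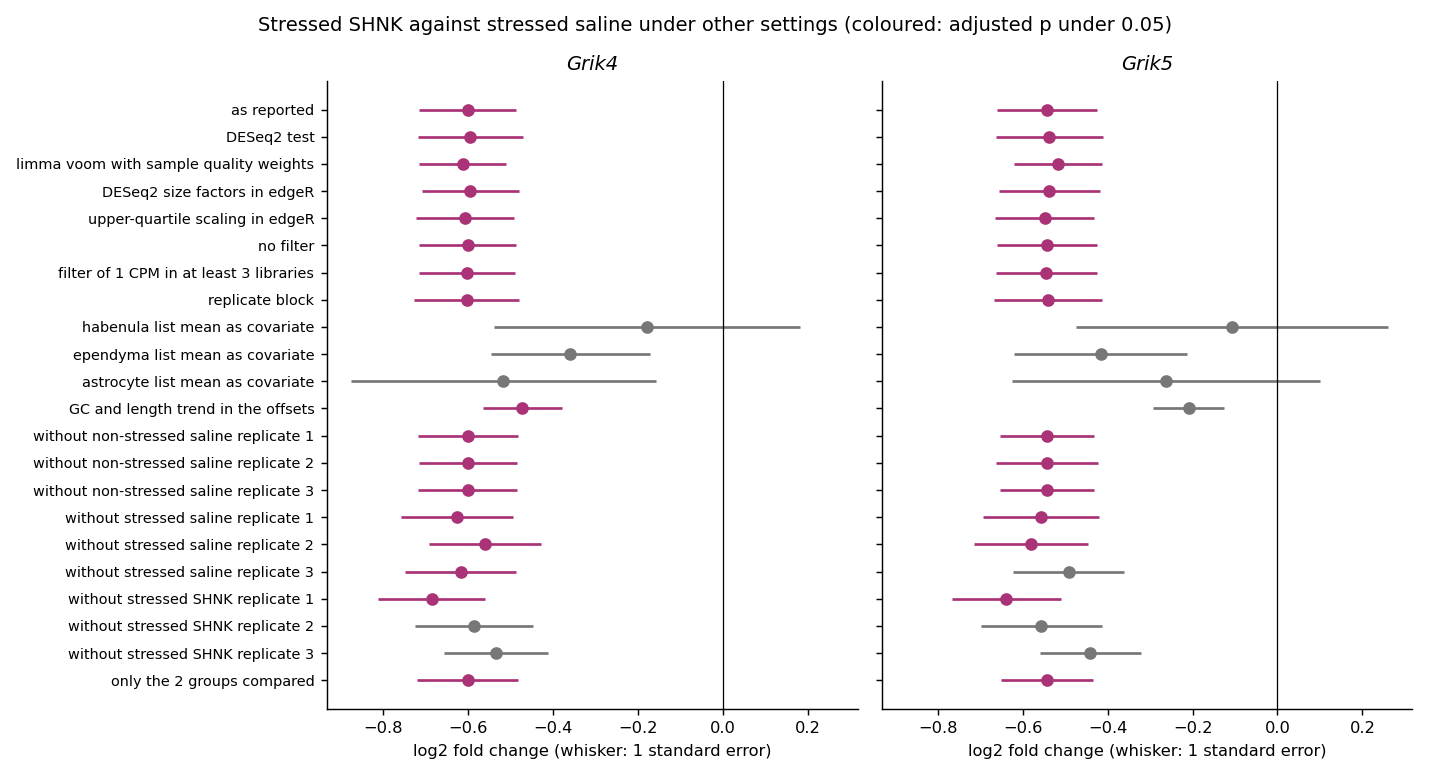
Log2 fold change of Grik4 and Grik5 in stressed SHNK against stressed saline as reported and under each alternative; whiskers are 1 standard error, and coloured points have an adjusted p under 0.05. All estimates lie below 0, from -0.69 to -0.18 for Grik4 and from -0.64 to -0.11 for Grik5, with the ones nearest to 0 from the habenula covariate.

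Against the non-stressed saline group, the SHNK group was lower by more in both genes, with no call. The log2 fold change was -0.71 ± 0.11 (SE) for Grik4 and -0.66 ± 0.12 (SE) for Grik5, each with an adjusted p of 0.0686 in edgeR. Of all genes, 1 (0.0055%) was called there, and Grik4 and Grik5 ranked 3 and 13 by unadjusted p. At an unadjusted p under 0.05, 2 members and 18.3% of all genes passed, and the SHNK libraries lay below all non-stressed ones for both members, as for 11.5% of all genes. DESeq2 called both members, with adjusted p-values of 4.00e-05 and 0.000274, and limma voom called neither, with 0.0551 for each. Without non-stressed saline replicate 2, both were called by edgeR (0.0240 and 0.0292). The ependyma covariate also gave a call for both (0.0190 and 0.0327), and over all alternatives the adjusted p ran up to 0.99997. This comparison shares its SHNK libraries with the one against stressed saline, so the pair are not independent.

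The test of any difference among the 3 groups called Grik4 (adjusted p = 0.00851, edgeR) and Grik5 (adjusted p = 0.0139, edgeR), where 4.88% of all genes were called. Grik4 and Grik5 were the members whose SHNK libraries lay below both saline groups, as they did in 6.13% of tested genes. The remaining 5 members had adjusted p-values of 0.523 to 0.943 in that test.

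**Figure D3:**
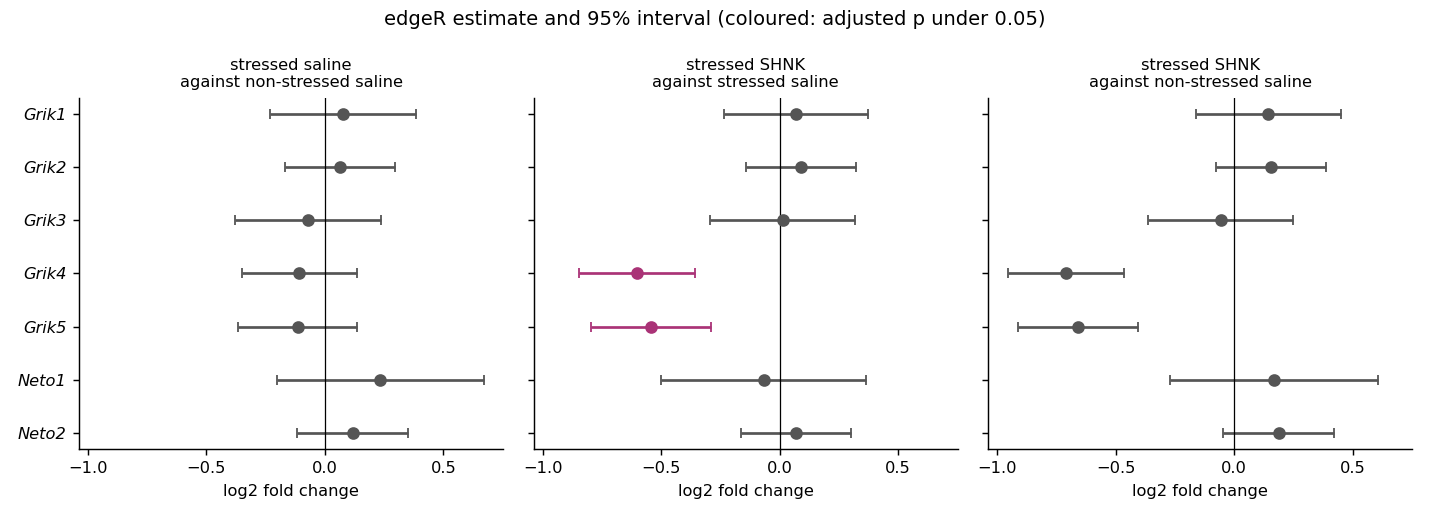
Log2 fold change of each member with its 95% interval in the 3 comparisons from the edgeR model; coloured points have an adjusted p under 0.05. Grik4 (-0.60) and Grik5 (-0.54) in stressed SHNK against stressed saline are the coloured points; both lie at -0.71 and -0.66 against non-stressed saline without a call.

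Among the low-affinity subunits, Grik2, the most widely expressed of the pore-forming subunits in brain, read 23.0, 19.3 and 19.4 CPM in non-stressed saline. It read 23.1, 21.8 and 19.7 CPM in stressed saline and 22.1, 22.2 and 24.5 CPM in stressed SHNK. The 3 groups overlapped, and the log2 fold change of SHNK against stressed saline was 0.092, with a 95% interval of -0.14 to 0.32 (adjusted p = 0.667, edgeR).

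Grik1, which encodes the subunit targeted by most selective kainate receptor antagonists, read 11.7, 12.4 and 9.37 CPM in non-stressed saline. It read 11.1, 12.5 and 11.7 CPM in stressed saline and 14.4, 10.7 and 11.9 CPM in stressed SHNK. SHNK replicate 1 was the highest of the 9 libraries, and the groups overlapped. The log2 fold change against stressed saline was 0.068, with a 95% interval of -0.24 to 0.37 (adjusted p = 0.824, edgeR).

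Grik3, the subunit with the lowest sensitivity to glutamate, read 10.1, 13.2 and 10.4 CPM in non-stressed saline. It read 9.93, 10.3 and 11.8 CPM in stressed saline and 11.5, 11.6 and 9.18 CPM in stressed SHNK. Non-stressed replicate 2 was the highest library and SHNK replicate 3 the lowest, so the spread within a group exceeded the difference between groups. The log2 fold change of SHNK against stressed saline was 0.014, with a 95% interval of -0.29 to 0.32 (adjusted p = 0.968, edgeR). For the 3 low-affinity genes, the intervals leave room for differences of up to 0.37 on the log2 scale and do not show equal levels.

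The auxiliary gene Neto2 read 15.9, 16.5 and 14.4 CPM in non-stressed saline. It read 17.2, 17.5 and 16.0 CPM in stressed saline and 16.7, 17.0 and 19.7 CPM in stressed SHNK. Every SHNK library lay above every non-stressed library, a layout found in 9.83% of tested genes, but the log2 fold change was 0.19 with a 95% interval of -0.045 to 0.42 (adjusted p = 0.383, edgeR). Against stressed saline the groups overlapped, with a log2 fold change of 0.071 and an interval of -0.16 to 0.30 (adjusted p = 0.747, edgeR).

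Neto1, on chromosome 18, was the member with the fewest reads, 140 to 311 per library. It read 4.17, 4.45 and 4.22 CPM in non-stressed saline, 6.60, 4.50 and 3.94 CPM in stressed saline and 4.79, 5.51 and 4.07 CPM in stressed SHNK. The high value of stressed saline replicate 1 gave that group its SD of 1.40 CPM. The log2 fold change of SHNK against stressed saline was -0.066, with a 95% interval of -0.50 to 0.37 (adjusted p = 0.883, edgeR). The locus overlaps an annotated antisense gene, and whether counting used strand is not given in the sources used here. Whether reads of that pair were told apart is therefore not known. Overlaps at the loci of other members are not described here.

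Social defeat by itself moved no member past the test. In stressed against non-stressed saline, 0 of 7 were called by edgeR, DESeq2 or limma voom, and 0 had an unadjusted p under 0.05 in edgeR, beside 1.17% of all genes called. The log2 fold changes ran from -0.12 (Grik5) to 0.23 (Neto1). The 95% intervals were -0.35 to 0.13 for Grik4 and -0.37 to 0.14 for Grik5. Those of Grik1, Grik2 and Grik3 were -0.23 to 0.38, -0.17 to 0.30 and -0.38 to 0.24. The intervals of Neto1 and Neto2 were -0.20 to 0.67 and -0.12 to 0.35, the former the widest of the 7. No member's libraries were separated between these groups, a layout found in 12.9% of tested genes in either direction. An unadjusted p under 0.05 was reached by 9.45% of all genes.

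The makeup of the subunit transcript pool was described as each gene's share of the summed CPM per kilobase of Grik1 to Grik5, with no test. Grik4 and Grik5 together made up 62.9% to 71.2% of the pool in non-stressed saline (mean 66.6% ± 4.24, SD, n = 3). They made up 62.8% to 65.9% in stressed saline (64.1% ± 1.63) and 50.003% to 55.5% in stressed SHNK (53.6% ± 3.08). The SHNK libraries lay apart from the 6 saline libraries in this share. The share of Grik5 alone was 54.9% ± 4.34, 52.9% ± 2.24 and 44.5% ± 2.92, and that of Grik4 was 11.6% ± 0.391, 11.2% ± 0.680 and 9.08% ± 0.182. Since shares sum to the whole, those of Grik1, Grik2 and Grik3 were higher in the SHNK group, with means of 19.2%, 20.5% and 6.66% beside 14.9%, 15.6% and 5.37% in stressed saline, while their CPM did not pass the test. Per kilobase of coding sequence, the high-affinity share was lower throughout, at 58.1%, 55.7% and 44.8% in the 3 groups in the same order. The shares of single low-affinity genes depended more on the length: per coding kilobase, Grik3 made up 10.9%, 10.7% and 12.8%, and per kilobase of the median protein-coding transcript, Grik2 made up 25.8%, 27.7% and 34.9%. On both of these scales, the SHNK group had the highest mean of each of the 3 low-affinity genes.

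**Figure D4:**
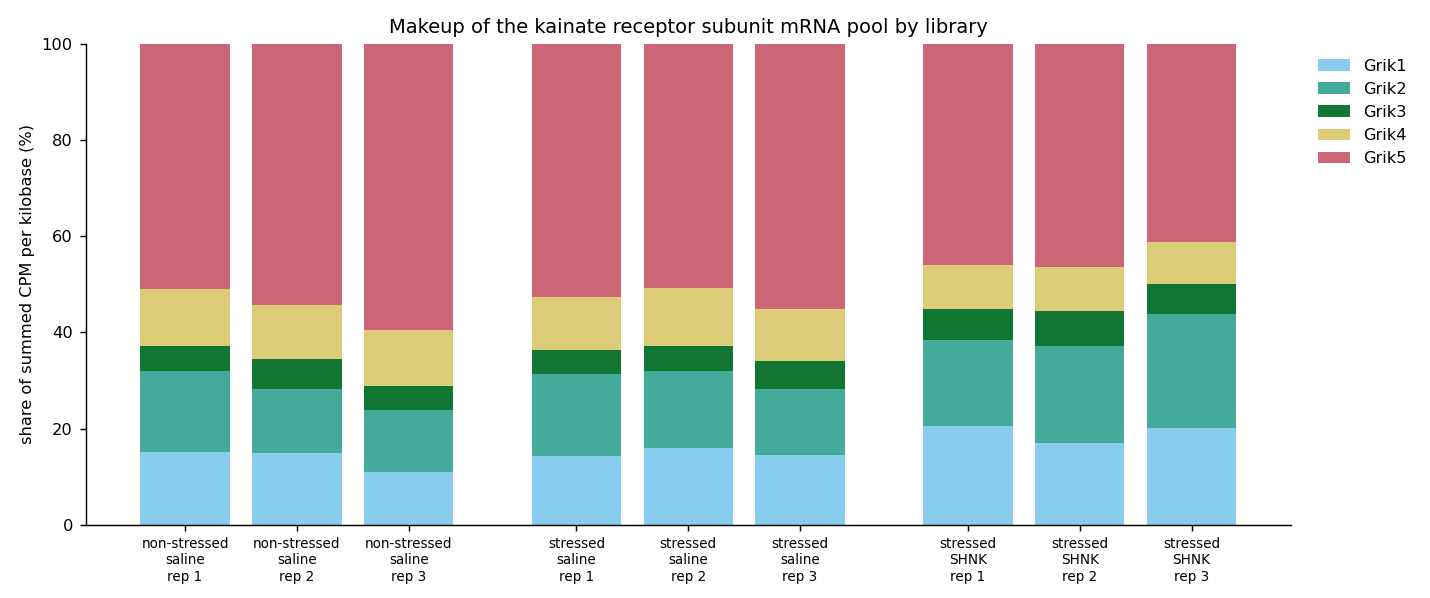
Share of each kainate receptor subunit gene in the summed CPM per kilobase of Grik1 to Grik5, in percent, 1 stacked bar per library. The upper 2 blocks, Grik4 and Grik5, take 62.8% to 71.2% in the 6 saline libraries and 50.003% to 55.5% in the 3 SHNK libraries.

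The summed CPM of the 5 subunit genes was 106.5 ± 3.83 in non-stressed saline, 102.7 ± 1.73 in stressed saline and 85.9 ± 6.52 in stressed SHNK (SD, n = 3 each). The ratio of Grik5 to Grik4 in CPM differed little between groups, at 3.02 ± 0.281, 3.02 ± 0.300 and 3.13 ± 0.154, so both fell by similar factors. Summed Neto1 and Neto2 was 19.9 ± 1.18, 21.9 ± 1.94 and 22.6 ± 1.10 CPM. The ratio of Neto to subunit transcripts per kilobase was 0.143 ± 0.013, 0.164 ± 0.016 and 0.210 ± 0.030. Its SHNK range of 0.180 to 0.240 lay above the highest saline library at 0.177. The subunit sum it is divided by holds Grik4 and Grik5, so this layout is not independent of their fall. Per coding kilobase the ratio was larger, at 0.324, 0.370 and 0.455, with the groups in the same order. Within the auxiliary pair, Neto1 made up 15.6% ± 0.775, 16.4% ± 3.49 and 15.4% ± 2.89, ranges that overlapped.

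Genes that act with kainate receptors were read from lists chosen for their role. Of 24 genes for scaffolds and trafficking, 2 rose and 1 fell in SHNK against stressed saline. Among all tested genes, 2.45% rose and 3.96% fell there. Snap25, a membrane fusion protein that also takes part in receptor internalisation, rose with a log2 fold change of 0.52 ± 0.10 (SE; adjusted p = 0.0107, edgeR). Nsf, the ATPase that takes fusion complexes apart, rose by 0.30 ± 0.076 (adjusted p = 0.0320, edgeR). Nptx1, a secreted pentraxin of excitatory synapses, fell, with -2.37 ± 0.44 (adjusted p = 0.00864, edgeR), from 8.94 ± 4.68 to 1.71 ± 0.906 CPM (SD, n = 3 each). The remaining 21 were not called, and the median of the list was -0.040. Those uncalled genes included Klhl17, an adaptor that targets GluK2 for degradation (-0.29 ± 0.10, adjusted p = 0.1004, edgeR), and Grip1, a PDZ scaffold (-0.35 ± 0.15, adjusted p = 0.185, edgeR).

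Of 13 genes for receptor signalling and RNA editing, 3 rose and none fell in that comparison, beside 2.45% and 3.96% of all tested genes. Calm2, which encodes a calcium sensor, rose by 0.53 ± 0.10 (log2, SE; adjusted p = 0.00934, edgeR). Adarb2, a brain-enriched relative of the editing enzymes, rose by 0.61 ± 0.15 (adjusted p = 0.0316, edgeR), from 5.52 ± 0.689 to 8.40 ± 0.310 CPM (SD, n = 3 each). Adarb1, the enzyme that edits the pore codon of Grik1 and Grik2 transcripts, had a log2 fold change of 0.15 ± 0.12 (adjusted p = 0.509, edgeR). The median of the list was 0.027.

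The other ionotropic glutamate receptor genes set the high-affinity genes in context. Of 18 genes for AMPA receptors and their auxiliary proteins, 1 was called in SHNK against stressed saline, where 6.41% of all genes were called. This was Gria1, which fell (-0.41 ± 0.079 log2, SE, adjusted p = 0.0107, edgeR). Like Grik4 and Grik5, Gria1 was lower in every SHNK library than in every saline library. Its adjusted p against non-stressed saline was 0.0686 (edgeR). Of 6 NMDA receptor subunit genes in the table, Grin2a was called and rose (0.44 ± 0.11; adjusted p = 0.0330, edgeR). Neither of the 2 delta receptor genes was called. Of 9 genes for glutamate loading and uptake, Slc1a3, a glial glutamate transporter that is also in the astrocyte list, fell (-0.37 ± 0.10; adjusted p = 0.0434, edgeR). The list medians were 0.088, -0.0082, -0.037 and 0.050, beside -0.0091 over all genes. None of the genes of these 6 lists was called in stressed against non-stressed saline, beside 1.17% of all genes. Nor was any called in SHNK against non-stressed saline, beside 0.0055% of all genes.

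**Figure D5:**
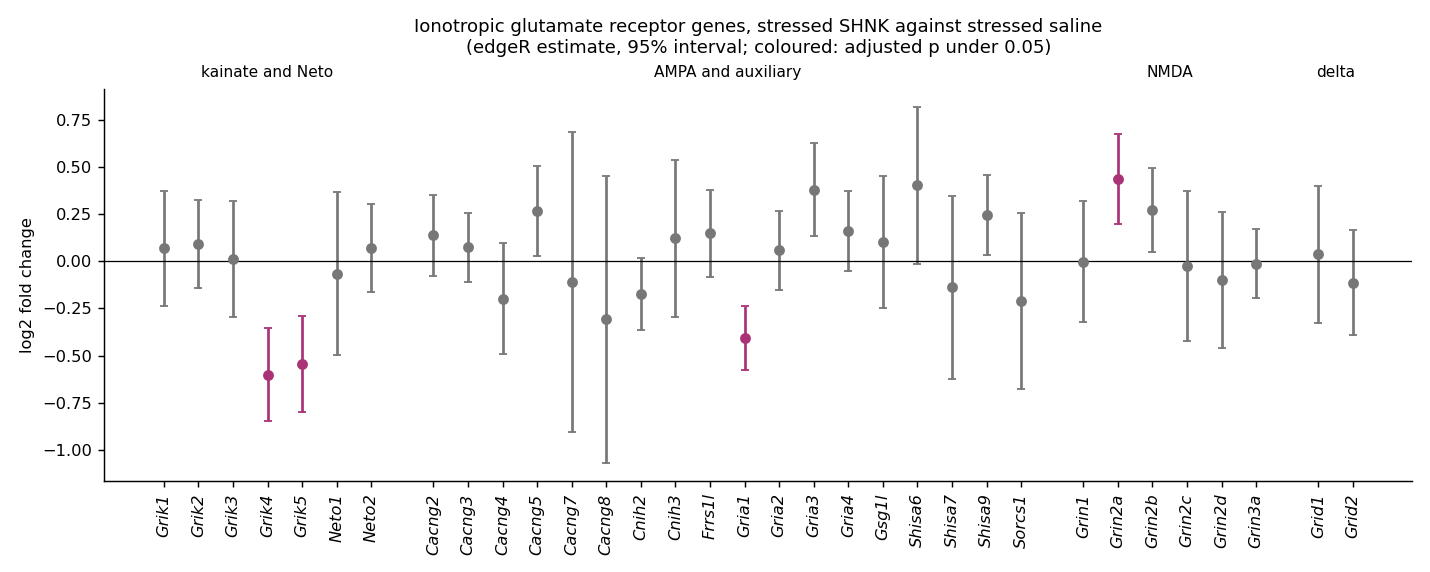
Log2 fold change of the kainate, AMPA, NMDA and delta receptor genes and their auxiliary proteins in stressed SHNK against stressed saline, with 95% intervals from edgeR; coloured points have an adjusted p under 0.05. Grik4 (-0.60), Grik5 (-0.54) and Gria1 (-0.41) fell, and Grin2a (0.44) rose.

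Across the 9 libraries, the genes most like each member were sought among 12512 genes by Pearson's r of log2 CPM, as a description in which the libraries' depth, composition and group are shared. For Grik5 these were Jph4 (r = 0.991) and Cdk13 (r = 0.981). With group means removed, their r was 0.957 and 0.970. All these genes were picked by their r over the same 9 libraries, so the values within groups are not independent of that choice. For Grik4 they were Keap1 (r = 0.973) and Fgd2 (r = 0.966). Those fell to 0.564 and 0.831 with group means removed, so the likeness to Keap1 was weaker within groups. The 2 genes nearest to Grik2 were Shoc2 and Slc25a40 (r = 0.967 and 0.955), and those nearest to Grik1 were Htatsf1 and Cnot6l (0.923 and 0.914). For Grik3 they were Myl9 and Nlgn2 (0.935 and 0.934), for Neto1 Vkorc1l1 and Cachd1 (0.944 and 0.941) and for Neto2 Asf1a and Pdia6 (0.968 and 0.959). Among the members themselves, with group means removed, Grik4 and Grik5 had r = 0.683 and Grik5 had r = -0.813 with Grik2 and -0.860 with Neto2. Neto1 had r = 0.114 with Grik5. Other pairs included Grik2 with Grik3 (r = -0.775) and Grik1 with Grik5 (r = -0.088). The GC content was 62.3% for Grik5, 41.6% for Grik2, 36.5% for Neto2 and 39.6% for Neto1. It was 54.2% for Grik3, 52.2% for Grik4 and 48.1% for Grik1. Whether GC content bears on these correlations was not tested.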

How the data were processed

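Bulk RNA-seq libraries (3 per group, 9 in all) were analysed from 1 deposited table of whole-number read counts per gene symbol, not normalized. Per the labels, 100 ng of RNA per library went into a SMARTer and TruSeq preparation. The submitters' processing notes name Trimmomatic 0.38, StringTie, HISAT2 and the builds mm10 and GRCm38. The sources used here do not give other versions, the tools' roles or strandedness.

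Genes were filtered with filterByExpr (minimum count 10, total 15; 762 left out), TMM-scaled and fitted in 1 quasi-likelihood model over 3 groups (edgeR 4.0.16, R 4.3.3), with Benjamini-Hochberg adjustment over 18194 genes and a threshold of 0.05. The common biological coefficient of variation was 0.132. Total counts were 32307869 to 51569143. Counting error is a sizeable part of the spread between libraries for some members, such as Neto1, Grik4 and Neto2. Reads per library were 140 to 311 for Neto1, 320 to 722 for Grik4 and 528 to 856 for Neto2. They were 338 to 585 for Grik3 and 382 to 683 for Grik1. Lengths and GC content came from GENCODE vM21 transcripts, found for 17243 symbols. RefSeq-matched transcripts were used where a symbol had any, as all members did, and its other transcripts where it had none. Log2 CPM used a prior count of 2. The members, gene lists and naming rule (all members; called genes of each list, up to 4, with a few uncalled ones chosen after their values were seen; the 2 genes most like each member with mean log2 CPM of at least 1) were chosen with earlier results of these data known. Alternatives were DESeq2 1.42.0, limma 3.58.1 voom, other scalings and filters, a replicate block, marker list covariates, GC and length offsets and leaving out each library. The fit was tested on simulated data. No per-sample column was left unused. A gene that the naming rule takes is not reported here.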

Additional observations from a re-analysis of the deposited data

How the results depend on the processing

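Grik4 and Grik5 stayed negative in SHNK against stressed saline under every alternative run, and the cause of each lost call was not tested. Members called there went from 2 to 0 with the habenula, ependyma or astrocyte covariate, to 1 with the GC and length offsets, and to 0 to 2 when 1 library was left out. Against non-stressed saline they went from 0 to 2 with DESeq2 or the ependyma covariate (0 to 2 without 1 library). In the test over the 3 groups they went from 2 to 0 with the habenula or astrocyte covariate and to 1 with the ependyma covariate or the GC offsets (0 to 2 without 1 library). In the stress comparison they were 0 throughout.

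Over all genes, the stress comparison called 213 genes, 472 with DESeq2, 102 with voom, 0 with the habenula or ependyma covariate and 40 to 306 without 1 library. SHNK against stressed saline called 1167, 2005 with DESeq2, 2377 with voom, 1, 2 and 26 with the habenula, ependyma and astrocyte covariates and 176 to 1385 without 1 library. SHNK against non-stressed saline called 1, 994 with DESeq2, 295 with the ependyma covariate, 9 with the 2 groups alone, 6 with the replicate block, and 0 with upper-quartile scaling, no filter, the 1 CPM filter, the astrocyte covariate or the GC offsets (0 to 749 without 1 library). The test over the 3 groups called 888, 2102 with DESeq2, 0, 36 and 73 with the 3 covariates in that order and 187 to 1492 without 1 library.

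The sign of uncalled members was not stable. In the stress comparison, Grik1 was -0.15 and Grik3 0.042 with the ependyma covariate, and Neto1 -0.14 with the astrocyte covariate; without 1 library they ran from -0.035 to 0.16, -0.15 to 0.055 and -0.016 to 0.38. In SHNK against stressed saline, voom gave -0.013 for Grik1 and 0.015 for Neto1; the habenula covariate gave -0.24 for Grik2 and -0.16 for Neto2; the ependyma covariate gave -0.075 for Grik3 and -0.032 for Neto2; the astrocyte covariate gave 1.19 for Neto1 and -0.043 for Neto2; the GC offsets gave -0.042 for Neto2. Without 1 library, Grik1 ran from -0.055 to 0.16, Grik3 from -0.047 to 0.11, Neto1 from -0.21 to 0.18 and Neto2 from -0.0051 to 0.12. In SHNK against non-stressed saline, Grik3 was 0.026 with voom and 0.19 with the GC offsets (-0.13 to 0.068 without 1 library), and Neto1 was -0.18 with the habenula covariate.

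The share of Grik4 plus Grik5 in the 3 groups was 59.6%, 57.2% and 46.3% from raw counts without length, 58.1%, 55.7% and 44.8% per coding kilobase and 57.3%, 54.5% and 43.4% per kilobase of the median protein-coding transcript; without 1 library it ran from 64.2% to 68.4%, 63.2% to 64.8% and 52.6% to 55.3%. Libraries with the same replicate number did not deviate together (r from -0.10 to 0.11 over 9 pairs, with 1 over 0.1). With the replicate block, Grik4 was -0.60 (adjusted p = 0.0192, edgeR) and Grik5 -0.54 (adjusted p = 0.0303, edgeR) against stressed saline, and 2 members were called as before. The block moved the genes called from 1167 to 878. Depth limits Neto1, with 140 to 311 reads per library, more than the other members.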
